A study of Mus musculus with 12 samples.

Results

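The 10 genes described here encode receptors for extracellular nucleotides: the ATP-gated P2X channels P2rx1, P2rx3, P2rx4 and P2rx7, and the G protein-coupled P2Y receptors P2ry1, P2ry2, P2ry6, P2ry12, P2ry13 and P2ry14. They were taken by symbol from the 24221 rows of the authors' deposited table, of which 13814 had an adjusted p-value. The 10 symbols were selected on their fold changes and adjusted p-values in this same comparison, so every value below is a description of genes already known to differ. Other receptors of the same 2 families, P2rx2, P2rx5, P2rx6 and P2ry4, are given beside them.

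The cells were mouse acute myeloid leukaemia cells of C57BL/6 strain that carry MLL-AF9, an oncogenic fusion gene. Cells whose Riok2 alleles are flanked by loxP sites (Riok2fl/fl) were given hydroxytamoxifen (OHT) for 72 h in 3 samples, and 3 further samples of Riok2fl/fl cells were given ethanol (EtOH), also for 72 h. OHT switches on Cre recombinases fused to an oestrogen receptor domain, and RIOK2 is a kinase needed for late maturation of the small ribosomal subunit. The Cre transgene, the number of independent cell lines and whether samples were separate cultures are not stated in the labels, so a p-value reflects only how these samples vary, and that variation may be technical. MLL-AF9 cells with RIOK2 inhibitor at 1 µM or DMSO, 3 samples each, are not analysed here. Levels of myeloid markers were high, as base means over both groups reached 194012 for the neutrophil gene S100a9 and 131712 for the monocyte and macrophage gene Lyz2 in the authors' deposited table. Lymphoid genes were lower but not all absent there, with base means of 149 for Cd79b, 304 for Il7r and 323 for Nkg7, and Ms4a1 listed at 0.

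Cells that are damaged or stimulated release ATP, ADP, UTP, UDP and UDP-sugars. P2X channels open on binding ATP and let sodium and calcium into the cell, whereas P2Y receptors signal through G proteins, either Gq, which raises calcium, or Gi, which lowers cyclic AMP. In granulocytes, monocytes and macrophages these receptors are known for steering chemotaxis, uptake of debris and release of interleukin 1, and in platelets for aggregation.

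The depth is known only in part. Base means, which are reads divided by library size factors and averaged over the libraries, added up to 20307732 in the authors' deposited table. It gives 1 fold change per gene and 0 columns per sample. Size factors of the 6 libraries, recovered from the smallest base means, ranged from 0.697 to 1.88 on the side of positive folds and from 0.783 to 1.11 on the other side. Riok2 stood at -3.60 ± 0.20 on the log2 scale (SE) in the authors' deposited table, which leaves 8.25% of the EtOH level (95% interval 6.28 to 10.8%). The table does not name its numerator, and positive folds are read as higher in OHT cells because Riok2 is negative. The deposited folds have standard errors of at most 0.747 even for genes with 1 read. They are therefore taken as shrunken towards 0, and understate the change of genes with few reads or wide errors.

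Of the 10 receptor genes, 8 were higher and 2 lower in OHT cells at an adjusted p-value under 0.05 in the authors' deposited table. Over all genes tested there, 25.5% were higher and 23.4% lower, 48.9% in all. The share called in either direction differed by level. It was 59.8% of genes with a base mean between 1019 and 1592, and 18.6% of those between 7.81 and 12.2. The shares over all genes set beside the lists below are not matched for level. Since the members were picked on this comparison, nothing is read from their count against that background. Their median log2 fold change was 1.69, and that of all genes tested 0.05, in the authors' deposited table. The same selection shapes the members' median, so nothing is read from that difference either. The gene lists below were also chosen with earlier results of these data known. Their counts and medians are therefore descriptions too. The bulk values cannot tell fewer cells of a type from less RNA per cell.

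**Figure D1:**
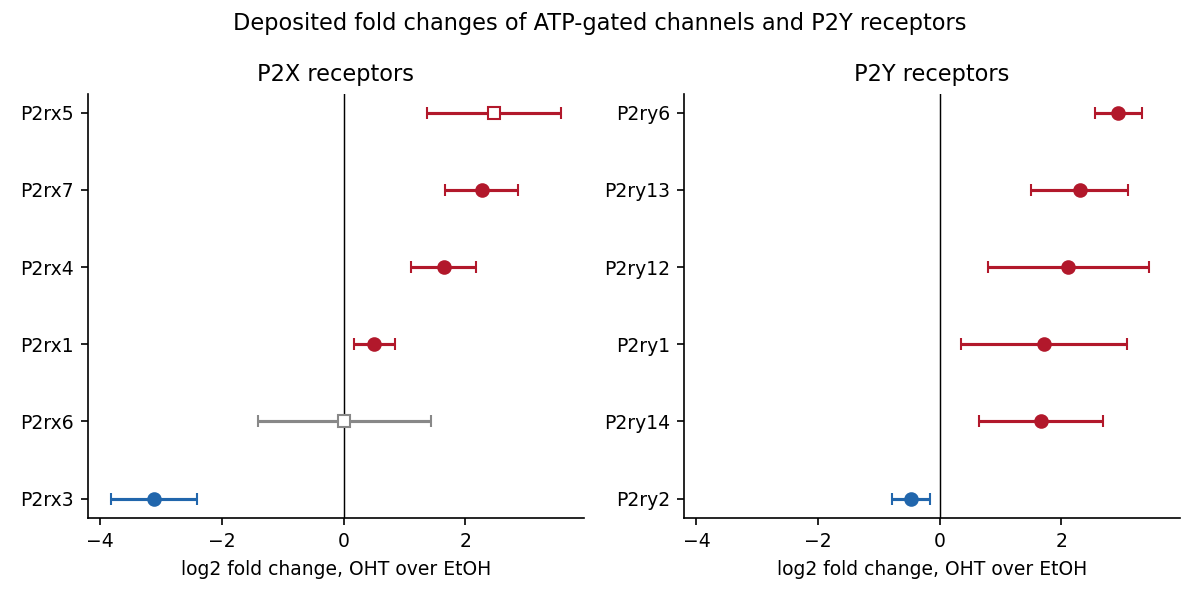
Log2 fold changes of the P2X (left) and P2Y (right) genes tested, OHT over EtOH, with 95% intervals from the deposited standard errors. Filled circles are members and open squares other receptors of the family, with red for higher, blue for lower and grey for not past an adjusted p of 0.05. P2rx3 stands alone at -3.12 and P2ry6 is the highest at 2.94.

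P2rx3 showed the steepest change among the channels. It encodes an ATP-gated channel best known from sensory neurons. It averaged 1049 normalised reads and stood at -3.12 ± 0.36 on the log2 scale (SE; adjusted p = 2.3e-16) per the authors' deposited table, so that its level fell to 11.5% of that in EtOH cells (95% interval 7.04 to 18.9%). From the base mean and the fold, with equal group sizes assumed, OHT cells held about 217 normalised reads and EtOH cells about 1881. Of 12 other sensory neuron genes, 9 had no adjusted p-value and 2 of those, Nefl and Mrgprd, were listed at 0 in the authors' deposited table. Summed over the 7 of them with recoverable reads, the sensory neuron genes had 2.96 to 8.60 normalised reads in libraries of the OHT side and 0 to 6.38 in libraries of the EtOH side. Nefh, a neurofilament gene, was the one that passed, and it fell by 1.65 ± 0.33 on the log2 scale in the authors' deposited table, while the neuropeptide gene Calca, which averaged 169 normalised reads there, stood at 1.48 ± 0.74 (adjusted p = 0.085). P2rx3 lies on GRCm38 chromosome 2 (84998583 to 85037462, minus strand), and its exons share 51 bases with those of Ssrp1 on the plus strand. Ssrp1, a histone chaperone gene with a base mean of 11654, stood at -0.89 ± 0.12 in the authors' deposited table. On either side of P2rx3, Tnks1bp1 stood at 0.61 ± 0.25 (adjusted p = 0.029) and Prg3 at -0.11 ± 0.74 without a p-value there. The labels do not say whether counting used strand, and the part of Ssrp1 reads in the P2rx3 value was not tested.

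P2rx7 and P2rx4 were both higher. P2rx7 opens at high ATP concentrations and triggers the NLRP3 inflammasome, and P2rx4 is a calcium-permeable channel of macrophages that also sits in lysosomes. P2rx7 averaged 335 normalised reads and stood at 2.27 ± 0.31 on the log2 scale (SE; adjusted p = 1.5e-12) per the authors' deposited table, a 4.83-fold rise with a 95% interval of 3.19 to 7.32. P2rx4 averaged 765 normalised reads and stood at 1.65 ± 0.27 (SE; adjusted p = 1.0e-08) per the authors' deposited table, a 3.13-fold rise with an interval of 2.17 to 4.52. The implied levels were about 555 in OHT and 115 in EtOH cells for P2rx7, and about 1159 in OHT and 370 in EtOH cells for P2rx4, in normalised reads. The genes lie close together on chromosome 5, both on the plus strand, with 16.1 kb and a processed pseudogene, Gm10064, between P2rx7 (122643911 to 122691432) and P2rx4 (122707544 to 122729738). Camkk2, the next gene after P2rx4, rose by 0.53 ± 0.15 in the authors' deposited table, while Ift81 on the other side stood at -0.56 ± 0.48 (adjusted p = 0.35).

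Promoters of this pair are shown because the genes lie close together and were both higher. Sequences are RefSeq windows on GRCm38.p6 from 250 bases before to 50 after a start site, at chr5:122643677-122643976 for P2rx7 and chr5:122707294-122707593 for P2rx4, both plus strand. Capitals mark a match to one of 6 motifs.
P2rx7: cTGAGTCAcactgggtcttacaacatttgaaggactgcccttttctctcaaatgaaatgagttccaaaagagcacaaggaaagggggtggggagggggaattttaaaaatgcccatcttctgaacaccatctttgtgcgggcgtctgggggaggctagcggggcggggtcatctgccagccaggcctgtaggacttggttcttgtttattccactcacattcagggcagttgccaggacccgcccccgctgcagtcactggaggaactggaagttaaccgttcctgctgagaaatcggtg
P2rx4: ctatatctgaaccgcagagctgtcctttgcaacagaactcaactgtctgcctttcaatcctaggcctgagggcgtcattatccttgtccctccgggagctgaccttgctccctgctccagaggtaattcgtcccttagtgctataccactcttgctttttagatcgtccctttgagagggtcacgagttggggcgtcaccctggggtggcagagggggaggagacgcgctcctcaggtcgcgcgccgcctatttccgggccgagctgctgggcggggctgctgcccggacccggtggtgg

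The motifs were searched on both strands: TGATGNAA (ATF4 with C/EBP), GAGGAAGT (PU.1), TTGCGCAA (C/EBP), TGANTCA (AP-1), CACGTG (E-box of MYC) and TGACGTCA (CRE), and no 2 of the matches in the windows printed here overlap. With the start site at 0, the P2rx7 window has an AP-1 match at -249 to -243, a motif found in 7.81% of all 32851 promoter windows, and the P2rx4 window has no match. A second P2rx7 start site has a PU.1 match at 3 to 10, a motif found in 3.20% of all windows. The table held 13 start sites for 8 of the 10 members.

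P2rx1 and P2rx5 were the remaining channels above the threshold. P2rx1, a fast channel of platelets and neutrophils, had the highest base mean of the 10 genes, 1273, and stood at 0.50 ± 0.17 on the log2 scale (SE; adjusted p = 0.0091) per the authors' deposited table, a 1.42-fold rise (interval 1.12 to 1.79). Next to it on chromosome 11, Atp2a3, a calcium pump gene, stood at 0.75 ± 0.19 in the authors' deposited table. P2rx5, 145 kb from P2rx1 and not among the 10, averaged 23.8 normalised reads and stood at 2.47 ± 0.56 on the log2 scale (adjusted p = 4.7e-05) per the authors' deposited table. Among the channels left, P2rx6 stood at 0.01 ± 0.73 (adjusted p = 0.99), and P2rx2 had a p-value of 0.86 and no adjusted p-value in the authors' deposited table. Reads per library could be recovered for both of these. P2rx6 had 3.73, 2.96 and 4.3 normalised reads in the libraries of the OHT side and 3.6, 4.60 and 2.55 in those of the EtOH side. P2rx2 had 1.07, 0 and 2.87 on the OHT side and 3.6, 0 and 1.28 on the EtOH side. The sides overlap for both genes, and a difference was not detectable at this depth of 23 and 9 reads in all.

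Among P2Y receptors that couple to Gq, P2ry6 and P2ry1 were higher and P2ry2 was lower. P2ry6 binds UDP and promotes phagocytosis in microglia, the macrophages of the brain. It averaged 402 normalised reads and stood at 2.94 ± 0.20 on the log2 scale (SE; adjusted p = 1.1e-47) per the authors' deposited table, the smallest adjusted p-value of the 10 genes, and a 7.66-fold rise with an interval of 5.86 to 10.01. P2ry2, which binds ATP and UTP and guides neutrophil migration, averaged 490 normalised reads and stood at -0.47 ± 0.16 on the log2 scale (SE; adjusted p = 0.0096) per the authors' deposited table, so that OHT cells held 72.1% of the EtOH level (interval 57.7 to 89.97%). The implied normalised reads were about 711 in OHT and 92.9 in EtOH cells for P2ry6, and about 410 in OHT and 569 in EtOH cells for P2ry2. These 2 genes are also neighbours, 21.9 kb apart on the minus strand of chromosome 7 (P2ry6 at 100937630 to 100974649, P2ry2 at 100996568 to 101012866). Their intervals do not overlap and lie on opposite sides of 0. Arhgef17, on the other side of P2ry6, stood at 0.65 ± 0.62 (adjusted p = 0.40) per the authors' deposited table.

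The P2ry2 promoter is shown as that of the one P2Y gene that was lower, at chr7:101011949-101012248 on the minus strand of GRCm38.p6 (RefSeq), with its motif match in capitals.
P2ry2: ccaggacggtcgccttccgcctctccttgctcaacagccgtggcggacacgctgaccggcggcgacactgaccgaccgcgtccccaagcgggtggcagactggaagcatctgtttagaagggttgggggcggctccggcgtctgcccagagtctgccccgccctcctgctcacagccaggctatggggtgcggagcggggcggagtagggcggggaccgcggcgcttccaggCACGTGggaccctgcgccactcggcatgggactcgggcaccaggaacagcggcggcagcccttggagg

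The match is an E-box, CACGTG, at -18 to -13 from this start site, and 7.15% of all promoter windows hold that motif. The window has 71.0% G and C, against a median of 52.7% over all windows. A second P2ry2 start site lies close by, and its window holds the same E-box at 37 to 42.

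P2ry1, an ADP receptor that starts platelet shape change, had the widest standard error and the largest adjusted p-value of the 10. It averaged 336 normalised reads and stood at 1.71 ± 0.70 on the log2 scale (SE; adjusted p = 0.030) per the authors' deposited table, with an interval of 1.27 to 8.45 on the fold scale. The 959 genes with a base mean between 269 and 420 had a median standard error of 0.20, and 99.2% of them had a smaller one. A call at an adjusted p-value under 0.01 would drop P2ry1 alone among the 10. An antisense gene, Gm37035, covers 992 of its exonic bases, and 22.0% of the 50-base words of P2ry1 transcripts are also found in Gm37035, which is not a row of the table. Of 10 platelet and megakaryocyte genes tested, 4 were higher and 0 lower in the authors' deposited table, where 25.5% of all genes were higher. These platelet and megakaryocyte genes had a median standard error of 0.66. Their errors differed: Vwf, the von Willebrand factor gene, rose by 3.82 ± 0.20, Gp1ba by 1.80 ± 0.58 and Gp1bb by 2.17 ± 0.54 in the authors' deposited table. Itga2b stood at 1.19 ± 0.74 and Pf4 at 1.24 ± 0.73 in the authors' deposited table, neither past the threshold and both named after their values were seen. The part of these cells in the P2ry1 value was not tested.

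**Figure D2:**
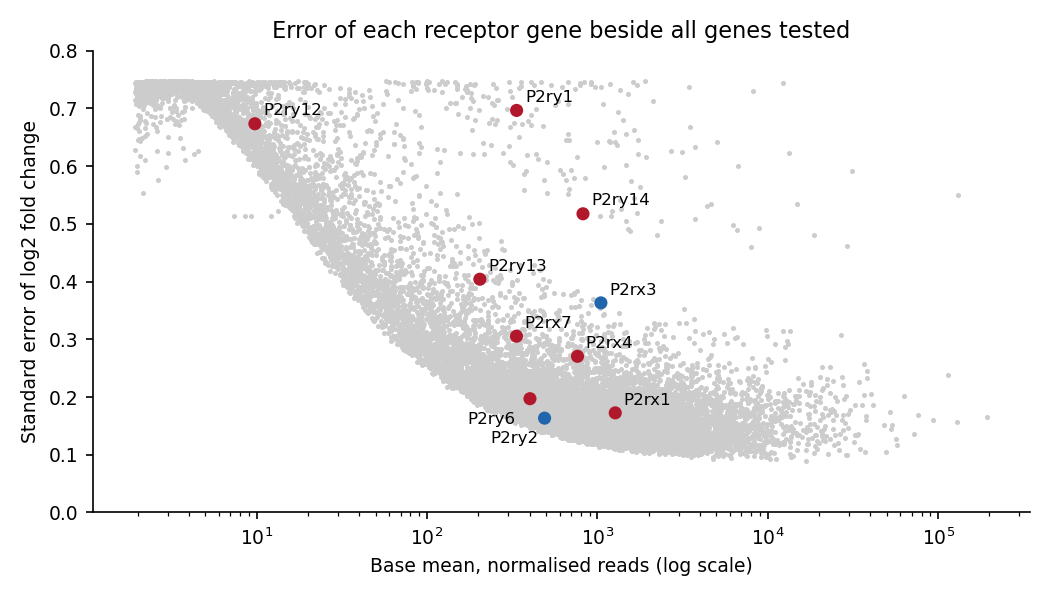
Standard error of the log2 fold change against base mean (log scale) for all 13814 genes tested (grey) and the 10 receptor genes (red for higher, blue for lower in OHT). P2ry1 at 0.70, P2ry14 at 0.52 and P2rx3 at 0.36 lie far above most genes of like base mean, P2ry13, P2rx7 and P2rx4 also lie high, and P2ry6 at 0.20 and P2ry2 at 0.16 lie among them.

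The Gi-coupled receptors P2ry12, P2ry13 and P2ry14 were all higher. P2ry12 and P2ry13 bind ADP, and P2ry12 is the platelet receptor blocked by clopidogrel and a marker of microglia. P2ry14 binds UDP-glucose and other UDP-sugars. P2ry13 averaged 204 normalised reads and stood at 2.30 ± 0.40 on the log2 scale (SE; adjusted p = 9.5e-08) per the authors' deposited table, a 4.92-fold rise with an interval of 2.84 to 8.51. P2ry14 averaged 823 normalised reads and stood at 1.66 ± 0.52 on the log2 scale (SE; adjusted p = 0.0037) per the authors' deposited table, a 3.17-fold rise with an interval of 1.57 to 6.40. Its standard error was wide, as 98.8% of the 1457 genes with a base mean between 659 and 1029 had a smaller one and their median was 0.17. P2rx3 was as wide for its level, since 98.8% of genes of like base mean had a smaller standard error, and the share was 93.9% for P2rx4, 93.0% for P2ry13 and 91.2% for P2rx7. P2ry12 was the lowest of the 10 genes, averaging 9.77 normalised reads and standing at 2.12 ± 0.67 on the log2 scale (SE; adjusted p = 0.0046) per the authors' deposited table.

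P2ry12 was low enough for its reads to be recovered library by library. The libraries of the OHT side held 43, 8 and 15 reads, and those of the EtOH side 3, 2 and 1. After division by size factors this was 22.9, 7.90 and 21.5 normalised reads on the OHT side and 2.7, 2.30 and 1.28 on the EtOH side. All 3 libraries of the OHT side lay above all 3 of the EtOH side, and the lowest of the first was 2.93 times the highest of the second. The recovered libraries carry no sample names, so they were neither averaged nor tested. Platelet genes moved in part with it: Treml1 had 7.46, 6.91 and 38.7 normalised reads on the OHT side and 0.90, 1.15 and 1.28 on the EtOH side. Tubb1 had 9.06, 3.95 and 37.3 on the OHT side and 1.80, 4.60 and 2.55 on the EtOH side. For both platelet genes the library with size factor 0.697 was far above the rest, whereas P2ry12 was as high in the library with size factor 1.88. Over the 4 platelet genes with recoverable reads the sums were 18.1, 13.8 and 93.2 on the OHT side and 7.20, 10.3 and 11.5 on the EtOH side, and Gp6 was at 0 in 4 of the 6 libraries. Their part in the P2ry12 value was not tested.

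**Figure D3:**
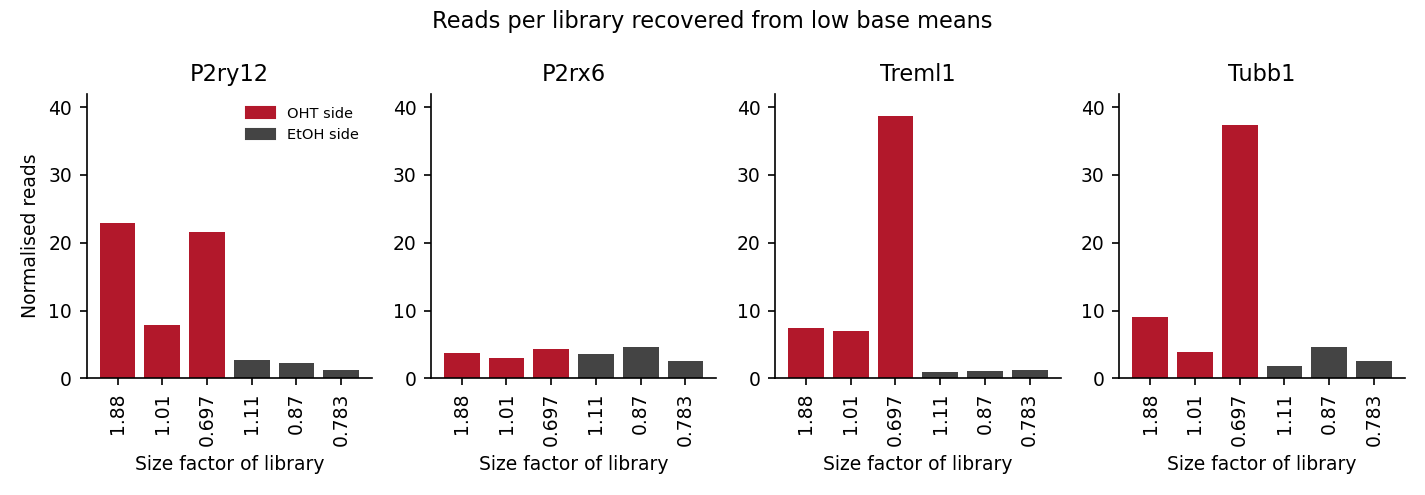
Normalised reads per library for P2ry12, P2rx6 and the platelet genes Treml1 and Tubb1, with libraries of the OHT side (red) left of those of the EtOH side (dark grey), each named by its size factor. P2ry12 is above 7 in all libraries of the OHT side and under 3 in those of the EtOH side, and the platelet genes peak near 38 in the library with size factor 0.697.

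Microglia share P2ry12, P2ry13 and P2ry6 with these cells, so some of their other genes were set beside them. The P2Y-related receptor Gpr34 rose by 2.97 ± 0.36, whereas Tmem119 fell by 1.20 ± 0.23, in the authors' deposited table. Sall1, Siglech and Olfml3, used as microglia-enriched markers, together held 3.20, 6.91 and 1.43 normalised reads on the OHT side and 5.40, 4.60 and 2.55 on the EtOH side.

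The Gi-coupled genes form a cluster on chromosome 3, all on the minus strand. P2ry14 (59113855 to 59153618) is 54.3 kb from P2ry13 (59207892 to 59210882), which is 5.39 kb from P2ry12 (59216272 to 59262871). P2ry1 is on the same chromosome, at 61002795 to 61008982 on the plus strand, 1740 kb further. Gpr171, an orphan receptor gene next to P2ry14, rose by 1.77 ± 0.27 (SE, adjusted p = 2.4e-10) per the authors' deposited table. All of P2ry14, P2ry13 and P2ry12 lies within Med12l, which runs the other way. Med12l, a Mediator subunit gene, averaged 44.3 normalised reads and stood at 1.20 ± 0.40 on the log2 scale (SE; adjusted p = 0.0071) per the authors' deposited table. Its annotated exons overlap those of P2ry12 by 9 bases and those of P2ry13 and P2ry14 by 0.

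Promoters of the cluster are shown because its receptors were higher together. They are RefSeq windows on the minus strand of GRCm38.p6, at chr3:59153443-59153742 for the upstream start of P2ry14, chr3:59210833-59211132 for P2ry13 and chr3:59262936-59263235 for P2ry12, with motif matches in capitals.
P2ry14: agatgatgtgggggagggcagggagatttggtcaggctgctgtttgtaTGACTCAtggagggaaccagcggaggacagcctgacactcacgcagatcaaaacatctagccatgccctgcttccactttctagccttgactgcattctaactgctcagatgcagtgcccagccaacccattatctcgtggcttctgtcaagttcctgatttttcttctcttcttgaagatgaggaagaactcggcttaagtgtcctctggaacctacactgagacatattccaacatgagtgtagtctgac
P2ry13: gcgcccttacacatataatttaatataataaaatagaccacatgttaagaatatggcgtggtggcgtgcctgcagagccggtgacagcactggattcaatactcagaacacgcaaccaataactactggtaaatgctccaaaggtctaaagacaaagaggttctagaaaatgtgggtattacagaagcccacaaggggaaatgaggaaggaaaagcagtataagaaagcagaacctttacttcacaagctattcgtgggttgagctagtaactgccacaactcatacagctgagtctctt
P2ry12: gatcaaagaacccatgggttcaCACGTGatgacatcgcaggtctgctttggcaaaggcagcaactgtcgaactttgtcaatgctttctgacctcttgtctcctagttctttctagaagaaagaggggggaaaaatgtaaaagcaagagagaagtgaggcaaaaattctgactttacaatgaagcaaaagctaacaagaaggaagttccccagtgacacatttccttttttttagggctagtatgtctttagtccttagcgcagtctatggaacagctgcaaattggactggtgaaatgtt

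The P2ry14 window holds an AP-1 match at -202 to -196, and another of its 4 start sites has one at -144 to -138. P2ry12 has an E-box at -228 to -223, and P2ry13 has no match to any of the 6 motifs. No motif was shared by all 3 genes of the cluster. These are matches of letters and say nothing of binding.

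Levels were compared between genes per kb of the longest principal transcript in GENCODE M21, with the level of each group implied by the base mean and the shrunken fold in the authors' deposited table. In OHT cells P2ry14 stood first at 697 normalised reads per kb, then P2rx1 at 601, P2rx4 at 429 and P2ry6 at 366. P2ry2, P2ry13, P2ry1, P2rx3 and P2rx7 followed between 113 and 136, and P2ry12 was last at 6.77. In EtOH cells P2rx3 stood first at 1038 per kb, followed by P2rx1 at 424, P2ry14 at 220, P2ry2 at 189 and P2rx4 at 137. P2ry6 had 47.7, P2ry1 40.4, P2ry13 27.3, P2rx7 23.3 and P2ry12 1.56 in EtOH cells. P2rx3 thus ranked 8 in OHT and 1 in EtOH cells, and P2ry6 ranked 4 in OHT and 6 in EtOH cells. The table gives no spread for a level, so no order of neighbouring genes was tested. For P2ry12 the implied EtOH level was 3.66 normalised reads. That is above the 2.7, 2.30 and 1.28 recovered in the libraries of the EtOH side, so the implied value is too high there. The order depended on the length used. With the union of annotated exons as the length, P2rx1 stood first in OHT cells at 569 per kb, and P2ry14 had 113 per kb in OHT and 35.7 in EtOH cells, since its union is 11059 bases and its principal transcript 1795. P2rx4 then had 165 per kb in OHT and 52.7 in EtOH cells, and P2rx3 77.8 in OHT and 674 in EtOH cells. The gathering of OHT levels between 113 and 136 did not hold with that length either.

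**Figure D4:**
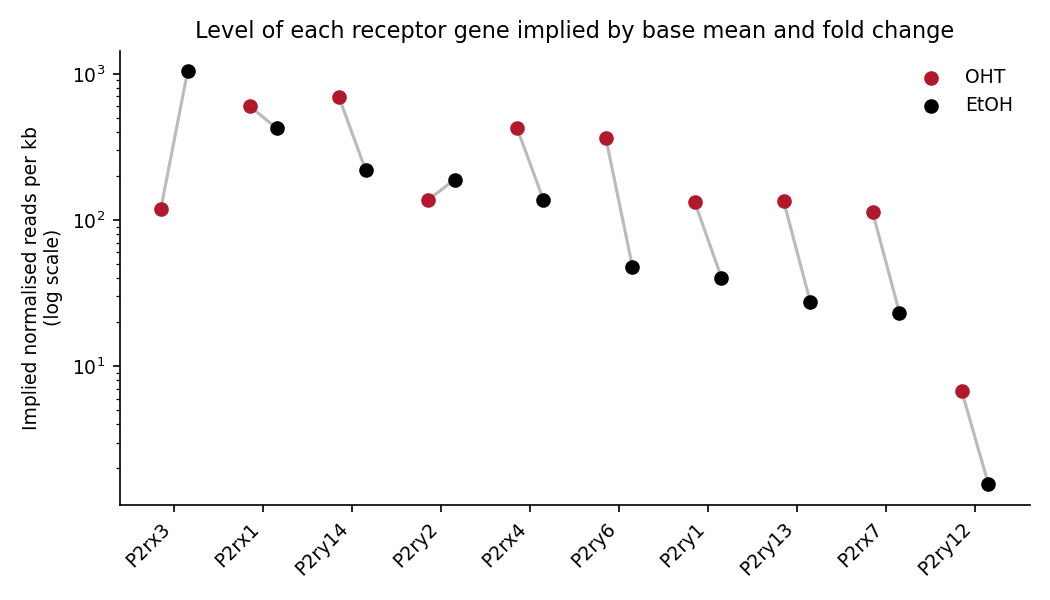
Implied level of each receptor gene in OHT (red, left of each pair) and EtOH cells (black), in normalised reads per kb on a log scale, ordered by the EtOH level. P2rx3 and P2ry2 are lower in OHT, P2rx3 with 120 in OHT and 1038 in EtOH cells, and the OHT levels of 5 genes gather between 113 and 136.

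The members could be told apart by sequence. Of all 50-base words in the transcripts of each member, 0 occurred in the transcripts of another member. P2rx4 shared 1.63% of its words with many genes and P2rx7 1.17% with the miRNA gene Mir8115 inside it, and P2ry1 was described above.

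Adenosine receptors respond to the end product of ATP breakdown. Of 3 tested, 2 were higher and 0 lower in the authors' deposited table, where 25.5% of all genes tested were higher and 23.4% lower. Adora2b, a low-affinity receptor that raises cyclic AMP, stood at 1.80 ± 0.34 on the log2 scale (SE; adjusted p = 9.6e-07), and Adora3, which couples to Gi, 1.78 ± 0.64 (adjusted p = 0.013), per the authors' deposited table. Adora2a stood at 0.80 ± 0.63 (adjusted p = 0.30) and Adora1 was listed at 0 in the authors' deposited table. Of 7 tested receptors related to the P2Y group by sequence, 4 were higher and 0 lower in the authors' deposited table. They were the platelet-activating factor receptor Ptafr (2.99 ± 0.23), Gpr34 (2.97 ± 0.36), Gpr171 (1.77 ± 0.27) and the lysophosphatidic acid receptor Lpar6 (1.14 ± 0.27) in the authors' deposited table. P2ry10 averaged 67.6 normalised reads and stood at 1.30 ± 0.75, but is 1 of 51 genes that the authors' deposited table leaves without a p-value.

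The list of genes that carry the P2Y signal was chosen with earlier results known, so its counts are a description. Of 29 G protein and effector genes tested, 19 were higher and 0 lower in the authors' deposited table, where 25.5% of all genes were higher, and their median log2 fold change was 0.90 against 0.05 for all genes tested. The Gi subunit gene Gnai2, the most abundant at a base mean of 21635, stood at 0.73 ± 0.15, the phospholipase gene Plcb2 at 1.14 ± 0.22 and the arrestin gene Arrb2 at 1.42 ± 0.21 in the authors' deposited table. Adrbk1, the older name of the receptor kinase gene Grk2, stood at 0.50 ± 0.14. The steepest of the list in the authors' deposited table were Pik3r5, a regulatory subunit of PI3K gamma (2.55 ± 0.20), and the phospholipase gene Plcb1 (2.31 ± 0.53).

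Of 12 genes listed as P2rx7 partners or inflammasome output, 8 were higher and 1 lower in the authors' deposited table. Their median log2 fold change was 0.56 there. The shares over all genes tested there were 25.5% higher and 23.4% lower. The adaptor Pycard (0.46 ± 0.14), the kinase Nek7 (0.54 ± 0.15), the pore protein Gsdmd (0.49 ± 0.16) and Txnip (1.12 ± 0.30) were higher in the authors' deposited table. The cytokine genes had the largest and least precise rises in the authors' deposited table, Il1b at 2.57 ± 0.67 and Il18 at 2.53 ± 0.71. Nlrp3 itself stood at 0.64 ± 0.35 (adjusted p = 0.12), and the one lower gene was the potassium channel Kcnk6 at -0.33 ± 0.14 in the authors' deposited table, both named after their values were seen.

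Enzymes that break down nucleotides and transporters that carry adenosine together gave 8 higher and 3 lower of 20 tested in the authors' deposited table, with a median of 0.65. Among all genes tested there, 25.5% were higher and 23.4% lower. Nt5e, which encodes CD73 and makes adenosine from AMP, rose by 2.25 ± 0.20, and the ecto-phosphatase Acpp by 1.79 ± 0.26 in the authors' deposited table. The NAD-consuming ectoenzymes Bst1 (2.98 ± 0.33) and Cd38 (2.50 ± 0.28) and the nucleoside diphosphatase Entpd5 (0.81 ± 0.16) were also higher in the authors' deposited table. Entpd1, which encodes CD39 and degrades ATP to AMP, rose by 1.28 ± 0.20, and Entpd6 was lower (-0.97 ± 0.15) in the authors' deposited table. The nucleoside transporters were divided in the authors' deposited table, with Slc29a3 higher (1.07 ± 0.17) and Slc29a1 (-0.37 ± 0.12) and Slc29a2 (-1.41 ± 0.27) lower. These 5 genes were named after their values were seen.

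Genes for release of nucleotides were divided, and those for supply of UDP-sugars were higher or not past the threshold. Of 12 release genes tested, 5 were higher and 2 lower in the authors' deposited table, beside 25.5% higher and 23.4% lower over all genes. The scramblase Ano6 (1.24 ± 0.17) and the volume-regulated channel subunits Lrrc8a (0.51 ± 0.21), Lrrc8c (1.02 ± 0.30) and Lrrc8d (0.48 ± 0.16) were higher, and the mitochondrial porin Vdac1 was lower (-0.48 ± 0.13) in the authors' deposited table. The other higher gene was Lrrc8b (0.96 ± 0.32) and the other lower one Calhm2 (-0.62 ± 0.25) in the authors' deposited table, and the ATP release channel Panx1 stood at -0.17 ± 0.15 (adjusted p = 0.37), all named after their values were seen. Of 9 UDP-sugar genes, 3 were higher and 0 lower in the authors' deposited table: the transporter Slc35d2 (0.96 ± 0.19), Ugdh (0.53 ± 0.11), and Ugp2, which makes the P2ry14 ligand UDP-glucose (0.36 ± 0.16).

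**Figure D5:**
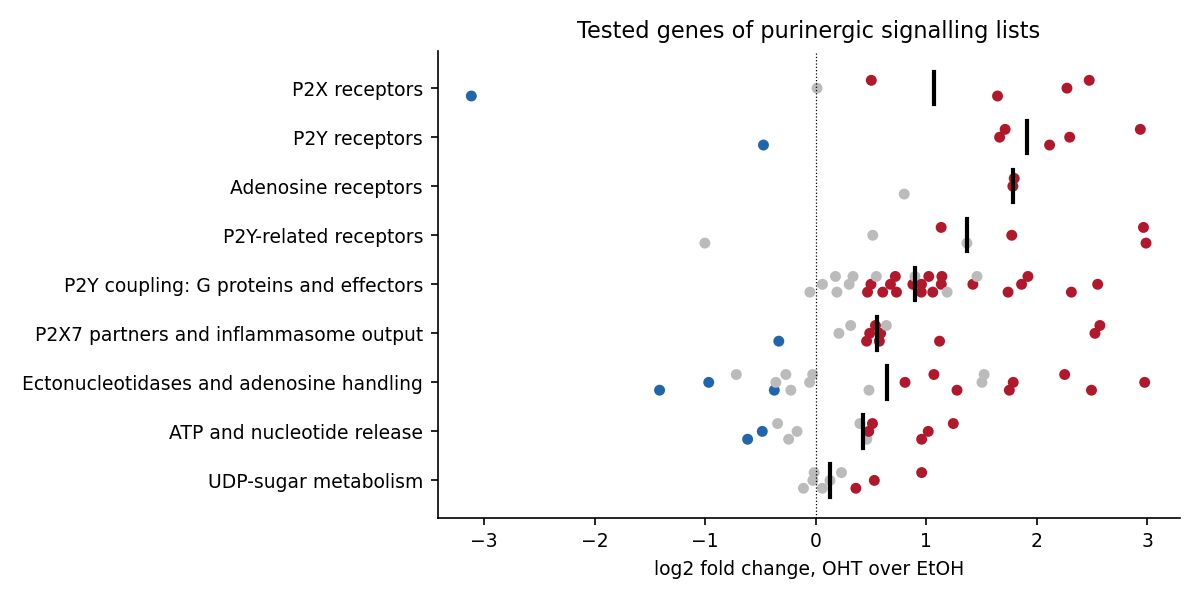
Log2 fold changes, OHT over EtOH, of the tested genes in 9 lists of purinergic signalling, 1 point per gene, with red for higher, blue for lower, grey for not past an adjusted p of 0.05 and a black bar at the median. The 9 lists together hold 104 tested genes, 58 higher and 8 lower in OHT. They include the 10 members, which were picked on this comparison, so nothing is read from this count. The shares over all genes tested were 25.5% higher and 23.4% lower.

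Monocyte and macrophage genes, which include cells where P2rx4, P2rx7, P2ry6 and P2ry13 are usually found, were higher in the same comparison. Of 12 tested, 11 were higher and 1 lower in the authors' deposited table, where 25.5% of all genes were higher and 23.4% lower. Their median was 2.36 (log2) there. Emr1 stood at 2.85 ± 0.19 and Ly6c2, the one lower member, at -0.57 ± 0.17 in the authors' deposited table. Ly6c2 has near-identical copies, but sequence shared with other genes was not searched for in any of these 12 genes. All 11 neutrophil genes tested were higher there, with a median of 2.41. Among 10 tested genes of mast cells, basophils and eosinophils, 1 was higher and 0 lower, with a median standard error of 0.63, in the authors' deposited table. Of 7 lymphoid and NK genes tested, 3 were higher and 2 lower in the authors' deposited table, where 23.4% of all genes were lower. The part of these cells in the receptor values was not tested.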

How the data were processed

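RNA came from RNeasy columns and went into TruSeq libraries, per the labels' protocols. The tools named, per the submitters' processing notes, are STAR 2.7.2b, Trimmomatic 0.38.0, HTSeq 0.9.1, DESeq2 and DESeq, and the build is mm10; their options are not stated there. The authors deposited, for OHT and EtOH cells, a mean signal per gene in normalised reads (base mean), a log2 fold change and its standard error on the log2 scale, a Wald score, and a p-value with its adjusted p-value. The deposited score equalled fold over error within 7.6e-08, and the adjusted p-value a Benjamini-Hochberg adjustment within 2.3e-07.

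Analysis used Python 3.11.15, pandas 2.3.3, statsmodels 0.14.6 and matplotlib 3.10.9. The table has no values per sample, so the planned tests on samples were not made, and a gene was called where the deposited adjusted p-value was under 0.05. Intervals are 95% and cover the deposited error only. Group levels were computed from base mean and fold, assuming equal groups. Whole reads were recovered for base means under 10 where 1 combination of 6 libraries matched within 8e-10. The side of a library came from the sign of the fold of genes with 1 read in it. Positions are GENCODE M21 on GRCm38, the assembly of mm10, and promoters RefSeq on GRCm38.p6. Named genes were the members, their relatives and neighbours, and in each list the 4 with the largest base mean and the 2 with the largest change among those called. Members and lists were chosen with earlier results of these data known. A few genes are not reported here.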

Additional observations from a re-analysis of the deposited data

How the results depend on the processing

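Calls were recounted under 6 alternatives, none of which re-estimates a fold, so they bear on the calls and not on direction: an adjusted p-value under 0.01, adjustment over every gene with a p-value, a base mean of at least 100 (for which P2ry12 is too low), folds minus the median of all genes tested (0.05), an absolute log2 fold change of at least 1, and a standard error of at most 0.5, the last chosen after seeing the data. With a log2 fold change of at least 1 required, 1 member was lower (P2rx3) and P2rx1 also dropped out. All genes then gave 2891 calls, 1882 higher and 1009 lower. The purinergic lists, which include the selected members, gave 38, with 36 higher and 2 lower. With a standard error of at most 0.5, 5 members were higher, as P2ry1, P2ry12 and P2ry14 dropped out. P2ry1 was also lost at an adjusted p-value under 0.01. No paired analysis was possible because the table has no values per sample; for the same reason another normalisation, another test and leaving out replicates were not run. Depth limits P2ry12, with 72 reads in all.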

Other observations

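Reads per library were also recovered for genes near these receptors in function, named after their values were seen. Cysltr2, a leukotriene receptor related to the P2Y group, had 4, 3 and 6 reads in the libraries of the OHT side and 0, 0 and 0 in those of the EtOH side, with an adjusted p-value of 0.10 in the authors' deposited table. Enpp2, which encodes autotaxin, had 10.7, 20.7 and 7.17 normalised reads on the OHT side and 3.6, 2.30 and 2.55 on the EtOH side, so that the sides did not overlap, with an adjusted p-value of 0.051 in the authors' deposited table. Entpd3, another ectonucleotidase, had 11.2, 1.98 and 27.2 on the OHT side and 0.90, 2.30 and 3.83 on the EtOH side, and the sides overlapped.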
